A study of Mus musculus with 20 samples.

Results

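A set of 2933 autosomal regions carried 5-formylcytosine (5fC) peaks in wild-type (WT) mouse embryos and in no *Tdg* null library. The regions were chosen by the peaks themselves: a stretch of adjacent 100 bp bins, each under a peak of at least 2 of the 10 WT libraries, was kept where it was 200 bp or longer and touched no peak of the 10 *Tdg* null libraries. They made up 2933 of 32099 such recurrent WT stretches, or 9.14% (95% exact Clopper-Pearson interval 8.82 to 9.46%, which covers counting error only), and are called WT-only regions here. The other 29166 recurrent WT stretches touched a *Tdg* null peak and serve as the comparison. Because presence in WT and absence from *Tdg* null peaks was the rule, neither is a finding, and absence is absence from a list of peaks, not a measured level. Only sequence, annotation and libraries kept out of the rule were tested.

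Peaks of 5fC were mapped at E11.5 in hindbrain, heart, liver and carcass by chemical pull-down and sequencing. Embryos were WT or *Tdg* null, the null allele being a targeted one in which a neomycin marker takes the place of the catalytic part of the gene. Hindbrain came from 4 WT and 4 *Tdg* null embryos, with 1 of each genotype from litters A, O, Q and Z. Heart, liver and carcass were all taken from the same 4 further embryos, WT i6 with *Tdg* null i1 (pair a) and WT i9 with *Tdg* null i5 (pair b), so each of these embryos supplied 3 libraries. Carcass holds many cell types, and the peak lists hold no expression, so tissue identity could not be checked against markers.

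5fC is made from 5-methylcytosine, by way of 5-hydroxymethylcytosine, through stepwise oxidation by TET enzymes. Thymine DNA glycosylase (TDG) cuts 5fC out of DNA, and base excision repair then puts an unmodified cytosine in its place. Without TDG, 5fC is no longer removed by this route and builds up. In mammals, most cytosine methylation lies at CG dinucleotides, and much of it sits in transposable elements, of which LINE-1 is the most abundant self-copying family in the mouse genome. A full LINE-1 copy has a promoter at its 5′ end, built in the mouse from tandem monomers rich in CG, then open reading frame 1, which codes for an RNA-binding protein, and open reading frame 2, which codes for an endonuclease and reverse transcriptase.

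Just over 50% of the WT-only regions held LINE-1 sequence, or 22.2% without WT embryo i6 in the rule, and others were tandem arrays. From these and the rest, 12 regions are shown. All sequences are from the plus strand of NCBIM37 (mm9), with CG dinucleotides in capitals. Where a region is longer than 300 bp its central 300 bp are given. The first set holds regions of the largest sequence family, LINE-1. The region at chr11:46317601-46318100 lay under peaks of 9 WT libraries, all but hindbrain Q, and aligned to the 5′ promoter part of LINE-1 at 98.4% identity. The other 2, at chr6:59492901-59493900 and chr13:50390901-50391700, aligned at 99.2% and 99.6% identity, with the midpoint of the alignment in open reading frame 2. They were chosen as the longest of their kind outside genes under both carcass libraries and no hindbrain library.
chr11:46317701-46318000: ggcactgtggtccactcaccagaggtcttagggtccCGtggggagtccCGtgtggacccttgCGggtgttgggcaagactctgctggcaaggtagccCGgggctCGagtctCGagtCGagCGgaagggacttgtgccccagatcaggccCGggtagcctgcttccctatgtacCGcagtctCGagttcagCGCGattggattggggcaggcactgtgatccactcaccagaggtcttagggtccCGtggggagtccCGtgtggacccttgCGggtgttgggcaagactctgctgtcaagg
chr6:59493251-59493550: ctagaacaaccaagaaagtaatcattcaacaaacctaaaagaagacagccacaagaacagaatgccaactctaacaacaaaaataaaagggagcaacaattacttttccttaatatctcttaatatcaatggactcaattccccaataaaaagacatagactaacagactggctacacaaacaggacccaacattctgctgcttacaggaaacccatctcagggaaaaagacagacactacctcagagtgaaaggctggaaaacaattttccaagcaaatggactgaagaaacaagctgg
chr13:50391151-50391450: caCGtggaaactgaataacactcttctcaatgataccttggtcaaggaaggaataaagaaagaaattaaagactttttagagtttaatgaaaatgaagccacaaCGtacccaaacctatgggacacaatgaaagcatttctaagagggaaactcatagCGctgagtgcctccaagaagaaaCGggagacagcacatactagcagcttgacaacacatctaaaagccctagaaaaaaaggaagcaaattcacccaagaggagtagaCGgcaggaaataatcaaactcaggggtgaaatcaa
The promoter fragment holds 16 CG dinucleotides in 300 bp, against 0 and 5 in the open reading frame fragments.

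The second set holds tandem arrays, in which a short unit follows itself many times. The region at chr3:40448901-40449600, in an intron of *Intu*, was the only WT-only region under peaks of all 10 WT libraries, and its unit is 29 bp long. The region at chr14:118544301-118545400, in an intron of *Gpr180*, lay under all 4 WT hindbrain libraries and no other. The region at chr13:34194601-34195900 lay under both WT heart libraries and no other, with a unit of 44 bp. The region at chr4:43092101-43093400, in an intron of *Unc13b*, lay under both WT carcass libraries and no other, with a unit of 52 bp. The region at chr9:15038401-15039200 has a unit of 6 bp and belongs to a family of 28, and the region at chr10:48451501-48452200, under 7 WT libraries, is an array of a 3 bp purine unit.
chr3:40449101-40449400: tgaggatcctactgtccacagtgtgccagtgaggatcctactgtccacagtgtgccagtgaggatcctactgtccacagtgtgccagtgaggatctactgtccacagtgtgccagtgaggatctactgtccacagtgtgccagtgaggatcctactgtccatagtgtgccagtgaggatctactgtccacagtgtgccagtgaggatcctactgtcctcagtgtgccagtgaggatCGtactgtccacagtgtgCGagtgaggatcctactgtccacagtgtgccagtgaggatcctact
chr14:118544701-118545000: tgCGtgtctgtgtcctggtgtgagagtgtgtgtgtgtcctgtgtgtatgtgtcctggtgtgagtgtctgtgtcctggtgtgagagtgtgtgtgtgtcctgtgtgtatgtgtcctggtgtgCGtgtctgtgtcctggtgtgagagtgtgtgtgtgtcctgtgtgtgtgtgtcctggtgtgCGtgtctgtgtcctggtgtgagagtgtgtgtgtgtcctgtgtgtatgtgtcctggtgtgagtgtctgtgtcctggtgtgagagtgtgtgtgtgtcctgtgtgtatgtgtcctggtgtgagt
chr13:34195101-34195400: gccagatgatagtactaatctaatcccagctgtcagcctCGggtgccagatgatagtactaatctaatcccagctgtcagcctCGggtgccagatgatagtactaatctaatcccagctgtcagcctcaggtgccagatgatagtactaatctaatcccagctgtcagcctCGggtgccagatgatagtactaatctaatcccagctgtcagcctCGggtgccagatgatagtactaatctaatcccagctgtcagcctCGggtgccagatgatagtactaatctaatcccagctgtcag
chr4:43092601-43092900: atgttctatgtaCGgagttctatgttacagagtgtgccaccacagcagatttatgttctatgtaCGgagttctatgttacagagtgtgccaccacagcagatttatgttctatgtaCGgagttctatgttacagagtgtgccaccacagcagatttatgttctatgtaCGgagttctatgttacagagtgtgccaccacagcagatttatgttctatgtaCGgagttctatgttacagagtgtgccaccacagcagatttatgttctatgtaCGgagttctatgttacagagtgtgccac
chr9:15038651-15038950: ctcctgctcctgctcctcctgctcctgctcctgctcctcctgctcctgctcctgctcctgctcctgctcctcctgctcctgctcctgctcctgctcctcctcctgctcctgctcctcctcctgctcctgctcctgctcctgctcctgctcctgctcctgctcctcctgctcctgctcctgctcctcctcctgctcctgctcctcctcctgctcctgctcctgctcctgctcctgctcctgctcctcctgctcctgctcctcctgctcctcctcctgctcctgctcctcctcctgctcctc
chr10:48451701-48452000: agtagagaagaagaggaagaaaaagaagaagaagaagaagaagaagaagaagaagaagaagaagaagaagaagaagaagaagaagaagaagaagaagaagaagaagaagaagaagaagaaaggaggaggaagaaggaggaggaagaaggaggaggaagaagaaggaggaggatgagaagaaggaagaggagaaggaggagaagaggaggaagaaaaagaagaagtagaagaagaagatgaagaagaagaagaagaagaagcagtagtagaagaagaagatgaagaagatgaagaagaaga
By shared words the chr9 array alone of these 6 belonged to a family, and the last pair holds no CG dinucleotide in the bases shown.

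The third set holds regions that did not align to LINE-1 and in which no short unit is repeated throughout. The region at chr6:3007401-3008200 lay under 9 WT libraries, all but carcass pair b. The region at chr14:43645301-43645800 stands for a family of 10 regions that all lie in CpG islands, and with 62.9% of its 24-base words distinct it counts as a tandem array by the criterion used below. The region at chr8:126343601-126344300, in an intron of *Rab4a*, lay under both WT liver libraries and no other, and none of its 50-base words occurs anywhere else in the genome.
chr6:3007651-3007950: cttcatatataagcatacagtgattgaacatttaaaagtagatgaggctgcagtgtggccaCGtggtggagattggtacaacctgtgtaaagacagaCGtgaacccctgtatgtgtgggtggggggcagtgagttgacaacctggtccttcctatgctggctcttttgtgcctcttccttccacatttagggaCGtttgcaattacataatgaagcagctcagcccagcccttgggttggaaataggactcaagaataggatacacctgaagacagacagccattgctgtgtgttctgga
chr14:43645401-43645700: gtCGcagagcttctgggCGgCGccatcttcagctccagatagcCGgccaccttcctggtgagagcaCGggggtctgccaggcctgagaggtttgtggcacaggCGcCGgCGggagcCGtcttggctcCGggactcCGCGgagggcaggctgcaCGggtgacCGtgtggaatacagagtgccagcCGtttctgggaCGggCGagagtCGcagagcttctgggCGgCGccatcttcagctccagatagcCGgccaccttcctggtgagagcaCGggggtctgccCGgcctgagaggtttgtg
chr8:126343801-126344100: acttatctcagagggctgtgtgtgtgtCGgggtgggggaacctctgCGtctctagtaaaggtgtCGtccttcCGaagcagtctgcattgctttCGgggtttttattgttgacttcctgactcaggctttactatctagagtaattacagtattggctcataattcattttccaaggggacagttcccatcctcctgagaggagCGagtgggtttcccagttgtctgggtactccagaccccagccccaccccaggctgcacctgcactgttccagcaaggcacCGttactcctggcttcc

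How many peaks each library held set the frame for these regions. WT libraries held 1502 to 41364 autosomal peaks covering 0.0357 to 0.991% of ungapped autosomal bases. The *Tdg* null libraries held 99132 to 243566 peaks covering 2.84 to 8.59%, apart from the *Tdg* null liver of embryo i5, which held 200 peaks. The study set aside 1 *Tdg* null liver replicate for poor quality without naming it. From the peak count the liver of i5 is taken here to be that replicate, and it stayed in the rule. Together the *Tdg* null peaks covered 14.6% of autosomal bases and all WT peaks 1.97%. Over the *Tdg* gene at chr10:82092573-82113544 there were 0 or 1 peaks per WT library and 0 to 4 per *Tdg* null library, so peaks there do not check the genotype labels. No WT-only region lay in *Tdg*.

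The regions were unevenly spread over the WT libraries. Carcass held most of them, 2133 under pair a and 2040 under pair b. Heart held 1160 under pair a and 158 under pair b. Liver held 1250 under pair a and 150 under pair b. Heart and liver of the pair a embryo thus carried several times as many regions as those of the pair b embryo, while the carcass libraries were close to each other. Hindbrain held 100 in litter A, 203 in O, 546 in Q and 112 in Z.

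**Figure D1:**
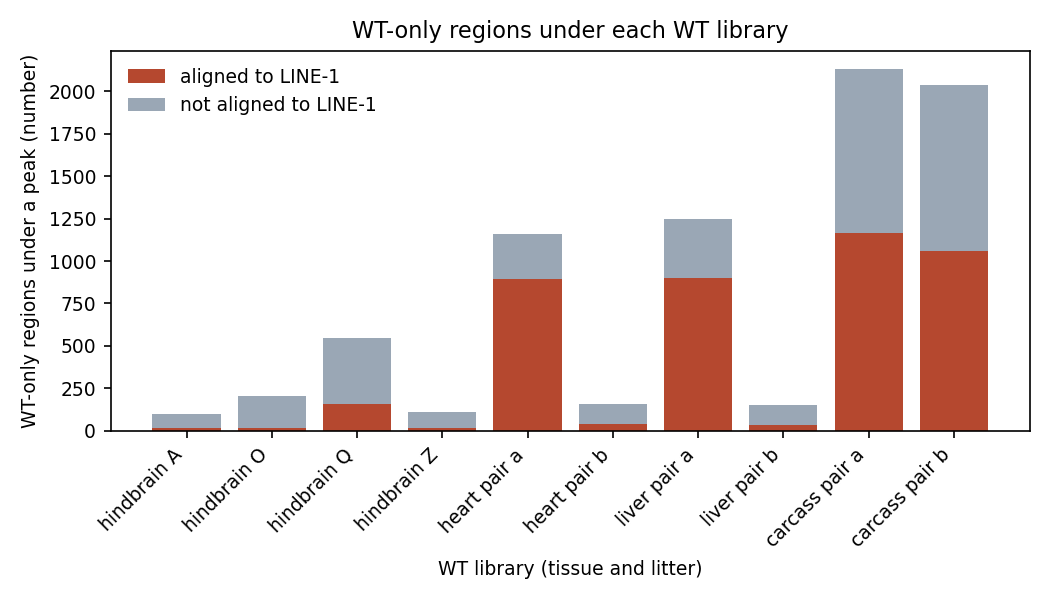
Number of WT-only regions under a peak of each WT library (bars, stacked by whether the region aligned to LINE-1), by tissue and litter. The 2 carcass libraries hold 2133 and 2040 regions, heart and liver of pair a hold 1160 and 1250, and the other 6 libraries hold 100 to 546.

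Relative to the recurrent stretches each library touched, the WT-only share was 37.0% in heart pair a and 18.3% in liver pair a. In the other 8 WT libraries it lay between 2.94% (hindbrain O) and 11.1% (liver pair b). The WT embryo i6, the source of all pair a tissues, therefore stood apart in heart and liver, and the counts and tests below that change most without it are given both ways. Without i6 in the rule there were 505 WT-only regions of 12922 recurrent stretches (3.91%).

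Regions under the smallest number of libraries the rule allows made up 60.9%, against 62.4% of the other recurrent stretches. Peaks of exactly 2 WT libraries lay over 1786 regions, of 3 over 533, of 4 over 482 and of 5 to 10 over 132. Regions under peaks of a single embryo numbered 384 (13.1%, against 3.74% of the other stretches), of 2 embryos 2270 and of all 6 embryos 8. Of the recurrent stretches of a single embryo 26% were WT-only, of 2 embryos 10.2% and of all 6 embryos 2.63%. The largest group, 963 regions, was under both carcass libraries and nothing else. Among recurrent stretches with that pattern the WT-only share was 7.94%, against 9.14% of all stretches. The next group, 388 regions, was under heart and liver of pair a and both carcass libraries. Of the recurrent stretches with that pattern 88.4% were WT-only. Hindbrain contributed 123 regions found in no other tissue (5.50% of such stretches), liver 26 (7.85%) and heart 13 (12.3%).

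At the limits of the rule, 435 regions were of the shortest length, 200 bp, and a further 81 stretches of 100 bp without a *Tdg* null peak fell just outside. Peaks of a single *Tdg* null library touched 1625 recurrent stretches, which were therefore not kept, and the median of the stretches left out was 6 *Tdg* null libraries. The WT-only regions had a median length of 400 bp (quartiles 300 and 500), against 500 bp (400 and 700) for the other recurrent stretches. The median distance to the nearest *Tdg* null peak was 5100 bp, with 214 regions closer than 500 bp and 929 at 10000 bp or more.

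The surroundings of the regions held few *Tdg* null peaks as well. At 1000 bp on either side of the centre, 1.36% and 1.16% of bases were under a peak of an average *Tdg* null library, and 2.88% and 2.87% at 5000 bp. Around the other recurrent stretches these values were 8.76% and 8.47% at 1000 bp, and 8.23% and 8.24% at 5000 bp. Next to the centre these values are bound to the rule, so they are given as a description.

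Repeated sequence was the clearest property of the regions that the rule did not use. The measure is the share of 50-base words in a stretch that occur at more than 1 place in the genome, on either strand. It was read per WT library, over the WT-only regions and over the other recurrent stretches under its peaks, and averaged per embryo. In embryo 2A8 it was 57.3% in WT-only regions and 12.1% in the others, in O3 49.2% and 3.51%, in Q3 56.2% and 4.19%, in Z3 61.2% and 14.3%, in i6 73.8% and 8.73%, and in i9 52.0% and 7.71%. The lowest WT-only value lies far above the highest value of the others. The mean difference was 49.9 percentage points ± 7.94 (SD, n = 6 embryos), with the same direction in 6 of 6, and it passed the exact two-sided sign-flip permutation test (p = 0.0312, the smallest that 6 embryos allow, adjusted p = 0.0437 over 7 features). With WT peaks of 600 bp or more it was 50.2 with 6 of 6 positive (exact sign-flip permutation p = 0.0312), and the adjustment took it past the threshold (adjusted p = 0.0729), while with words of 100 bases it was 33 and passed. The rule asks for peaks in 2 libraries, so embryos share stretches and are not fully independent, here and in the other feature tests. In these tests the same *Tdg* null lists also split the stretches of every embryo. The same direction in 6 of 6 therefore does not replicate the absence from *Tdg* null peaks.

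Counted once each, 1225 of the 2933 regions (41.8%) had over 90% repeated words and 805 (27.4%) had none. Of the other recurrent stretches 0.682% had over 90% and 91.6% had none. Words present in at least 100 copies filled 40.3% of the WT-only regions on average and 0.559% of the others. For scale, 10.4% of 50-base words were repeated in autosomal bins taken at even spacing. In bins under peaks of at least 2 *Tdg* null libraries and no WT peak, 1.48% were. These *Tdg* null bins thus held less repeated sequence than the genome at large, and bins under a single *Tdg* null library were not read. Read by embryo, the other recurrent stretches lay below the genome value in 4 of 6, above it in 2A8 and Z3, and the WT-only regions lay above it in 6 of 6. Reads of repeated sequence fit several sites of the genome, and the part of their placement in these values was not tested. Without embryo i6 in the rule the mean share of repeated words was 53.7% in the 505 regions left and 3.89% in the others. Of those 505 regions 21.6% had over 90% repeated words and 67 (13.3%) had none.

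LINE-1 regions held 76.9% of the repeated 50-base words of the WT-only regions, and LINE-1 stretches 23.1% of those of the others. Without embryo i6 in the rule the shares were 31.9% and 28.6%. Regions were grouped by shared 24-base words, and the largest family held 1516 of the 2933 regions, on all 19 autosomes. Without embryo i6 in the rule, 112 of the 505 regions overlapped a region of this family. A full LINE-1 copy at chr16:71481663-71489053, with open reading frames of 365 and 1297 codons, was used as a ruler. It was picked from the surroundings of the regions of this family, ranked by the words they share with the family. By alignment to it over at least 100 bases, 1483 WT-only regions (50.6%) counted as LINE-1, whatever their length, against 205 of the other recurrent stretches (0.703%). Of 47878 autosomal windows of 400 bp, 12.1% aligned. Of 39728 windows that start under peaks of at least 2 *Tdg* null libraries and no WT peak, 0.468% did.

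The LINE-1 share was unequal among libraries. It was 77.2% of WT-only regions under heart pair a, 72.1% under liver pair a, 54.8% and 52.0% under carcass pair a and b, 25.3% under heart pair b and 24% under liver pair b. In hindbrain it was 17% in A, 9.36% in O, 29.3% in Q and 16.1% in Z. In the same libraries 0.523 to 6.52% of the other recurrent stretches aligned, so the WT-only share was the higher one in 10 of 10 libraries. This comparison was chosen after the values were seen and has no test. Without embryo i6 in the rule the share was 112 of 505 regions (22.2%), against 1.16% of the other 12417 stretches.

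The same difference was visible in the peak lists as a whole, before any rule. In up to 5869 peaks per library taken at even spacing, LINE-1 made up 25.7% of the peaks of WT heart pair a and 10.5% of WT liver pair a. In the other 8 WT libraries it made up 0.969 to 6.84%. In the 9 *Tdg* null libraries other than the liver of embryo i5 it made up 0.233 to 0.765%, and WT was above *Tdg* null in all 9 pairs of tissue and litter. The set-aside *Tdg* null liver, with its 200 peaks, was at 30.5%. These shares come from the same peaks as the rule and are a description. The number of peaks moved with the genotype, and its part in the LINE-1 share was not tested.

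**Figure D2:**
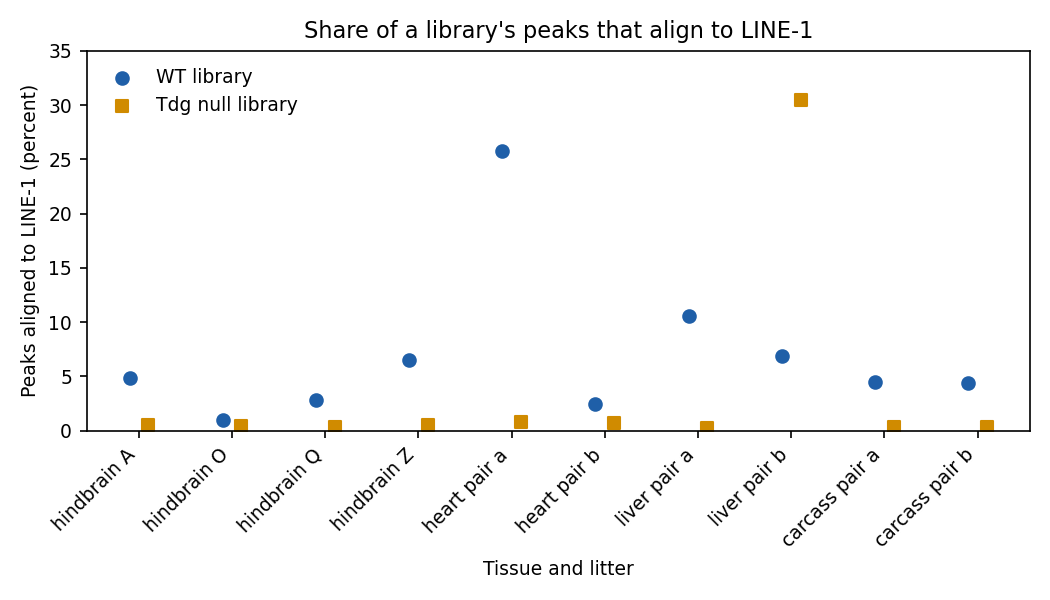
Percent of a library's autosomal peaks that align to LINE-1, for WT (circles) and *Tdg* null (squares) libraries, by tissue and litter. WT heart pair a (25.7%) and the set-aside *Tdg* null liver pair b (30.5%) stand apart, and the other 9 *Tdg* null libraries lie between 0.233 and 0.765%.

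The LINE-1 copies under WT-only regions were close to the ruler copy. Their median identity was 97.8%, with quartiles of 95.4 and 98.8%, and 76.8% of them reached 95% identity. Of the LINE-1 stretches among the other recurrent ones 33.2% reached it, and of aligned autosomal windows 19.4%. The ruler was chosen for words shared with WT-only regions, so a higher identity of these regions to it is partly built in. Without embryo i6 in the rule the median over the 112 LINE-1 regions left was 93.9%, and 44.6% of them reached 95%. Each alignment was assigned to a part by its midpoint. Open reading frame 2 held 982 regions (66.2%), against 43.4% of the other LINE-1 stretches and 60.1% of aligned autosomal windows. Open reading frame 1 held 217 (14.6%), against 19.5% and 11.7%. The 3′ end held 197 (13.3%), against 28.3% and 25.6%, and the 5′ promoter part 83 (5.60%), against 8.29% and 2.18%. Compared with aligned windows of the genome, a smaller share of the regions thus lay at the 3′ end and a larger one in the promoter part, as a description with no test. Without embryo i6 in the rule 46 of the 112 regions lay in open reading frame 2 (41.1%), 19 in open reading frame 1, 20 at the 3′ end and 26 in the promoter part (23.2%). CG dinucleotides were densest in the promoter part, at 4.28 per 100 bp against 0.796 in open reading frame 2, and 48 of the 53 LINE-1 regions in a CpG island lay there.

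**Figure D3:**
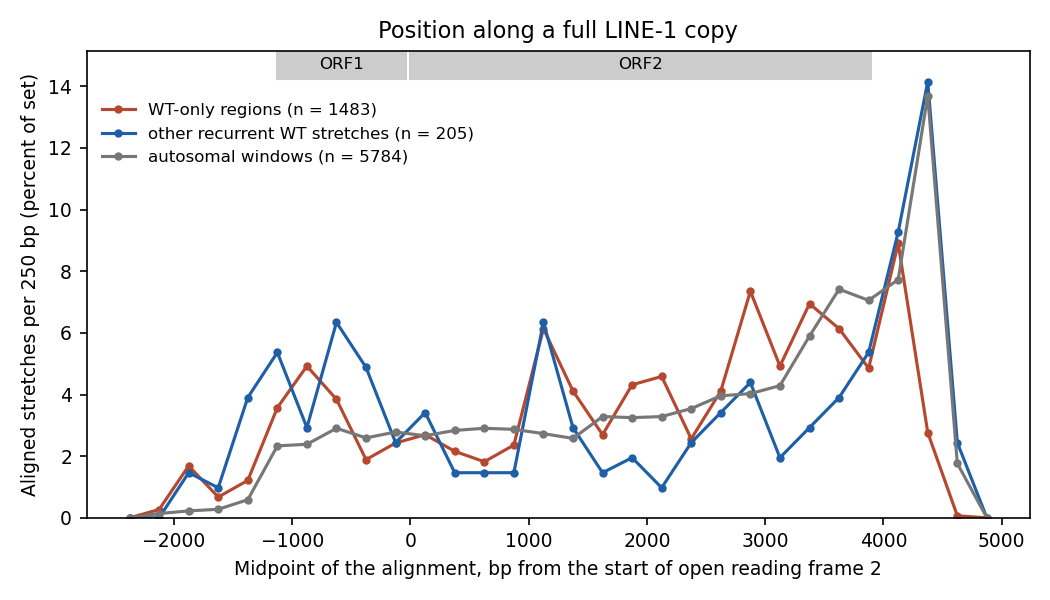
Position of the alignment midpoint along a full LINE-1 copy, in bp from the start of open reading frame 2 (x axis), as percent of each set per 250 bp (y axis), for WT-only regions, other recurrent WT stretches and autosomal windows of 400 bp. WT-only regions (n = 1483) are spread over both reading frames (grey bars) and are not confined to one end.

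With the LINE-1 family there were 41 families of 2 or more regions, the others holding at most 28 regions each, and 1191 regions belonged to none. The family of 28 includes the chr9 array shown above. All 28 were tandem arrays, and a 6 bp unit fitted best in 12 of them. They had 65.1% GC and 0.103 CG dinucleotides per 100 bp, all 28 lay under a hindbrain library, 24 under at least 2 and 12 under a liver library, and none under heart or carcass. A family of 21, of which 18 were tandem arrays, had 35.5% GC and 0.0833 CG dinucleotides per 100 bp, and its regions were spread over all 4 tissues (16 under hindbrain, 13 under heart, 16 under liver, 17 under carcass). The first family is thus far richer in GC than the second, and both nearly lack CG. A family of 15 was rich in CG, at 4.98 per 100 bp, and 5 of its regions lay in CpG islands. A family of 10 reached 7.50 per 100 bp with all 10 in CpG islands. In all, 241 regions (8.22%) were tandem arrays by the criterion that under 80% of their 24-base words were distinct, 210 of them outside LINE-1. Of the other recurrent stretches 240 (0.823%) were.

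CpG islands, which are short stretches with many CG dinucleotides and are often promoters, were more frequent among WT-only regions. Per embryo 4% of WT-only regions and 3.74% of the others overlapped an island in 2A8, 3.45% and 1.22% in O3, 6.04% and 1.05% in Q3, 6.25% and 3.92% in Z3, 6.04% and 1.93% in i6 and 10.8% and 1.65% in i9. The difference was small in 2A8 and largest in i9. On average it was 3.85 percentage points ± 3.08 (SD, n = 6 embryos), positive in 6 of 6 (exact sign-flip permutation p = 0.0312, adjusted p = 0.0437). With WT peaks of 600 bp or more it was 2.32 and did not pass (exact sign-flip permutation, adjusted p = 0.562), and with islands of at least 500 bp it was 2.38 and passed. Of the 131 regions in islands, 53 aligned to LINE-1, 3 had no repeated word and 3 also lay in the 1000 bp upstream of a transcription start. Of the 251 other recurrent stretches in islands, 52 lay upstream of a start. Islands were called on unmasked sequence, and among stretches without repeated words the difference was 0.369 percentage points in the 4 embryos that could be read (adjusted p = 0.75, exact sign-flip permutation).

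CpG density went the other way. Per embryo the WT-only regions held 0.835 to 1.78 CG dinucleotides per 100 bp and the others 2.13 to 2.22, so the embryos' values did not overlap. The mean difference was -0.93 per 100 bp ± 0.364 (SD, n = 6 embryos), with 0 of 6 positive (exact sign-flip permutation p = 0.0312, adjusted p = 0.0437). By library the direction was the other one in heart pair b, by 0.145. With WT peaks of 600 bp or more the difference was -1.09 with 0 of 6 positive and did not pass after adjustment (exact sign-flip permutation p = 0.0312, adjusted p = 0.0729). Among stretches without repeated words it was -0.38 per 100 bp in the 4 embryos that could be read, too few to pass (exact sign-flip permutation, adjusted p = 0.25). The genome at large held 0.854 per 100 bp. GC content did not pass the test. It was 43.9% over all WT-only regions and 47.5% over the others, but the embryo differences had a mean of -0.86 percentage points ± 2.15 (SD, n = 6 embryos) with 3 of 6 positive (exact sign-flip permutation p = 0.375, adjusted p = 0.375). The mean turned positive without embryo i6 in the rule (0.445), with pair a left out (0.467) and with WT peaks of 600 bp or more (0.944). In the other settings it stayed negative.

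WT-only regions lay in genes less often than the other recurrent stretches. Between 26.9% (i6) and 36.5% (O3) of them overlapped a gene, against 47.9 to 52.7% of the others, a mean difference of -17.6 percentage points ± 4.60 (SD, n = 6 embryos, 0 of 6 positive, exact sign-flip permutation p = 0.0312, adjusted p = 0.0437). Exons were overlapped by 2.43 to 8.04% of them and 11.4 to 13.4% of the others, a mean difference of -7.74 percentage points ± 2.00 (SD, n = 6 embryos, 0 of 6 positive, exact sign-flip permutation p = 0.0312, adjusted p = 0.0437). For the 1000 bp upstream of transcription starts the mean difference was -1.33 percentage points ± 1.46 (SD, n = 6 embryos, 1 of 6 positive), which did not pass (exact sign-flip permutation p = 0.125, adjusted p = 0.146). With WT peaks of 600 bp or more the gene difference was -8.85 and the exon difference -9.12 percentage points, and neither passed (exact sign-flip permutation, adjusted p = 0.164 and 0.0729). Among stretches without repeated words the gene difference was -4.58 and the exon difference 0.154 percentage points, and neither passed (exact sign-flip permutation, adjusted p = 0.25 and 0.875, with 4 embryos, too few to pass).

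**Figure D4:**
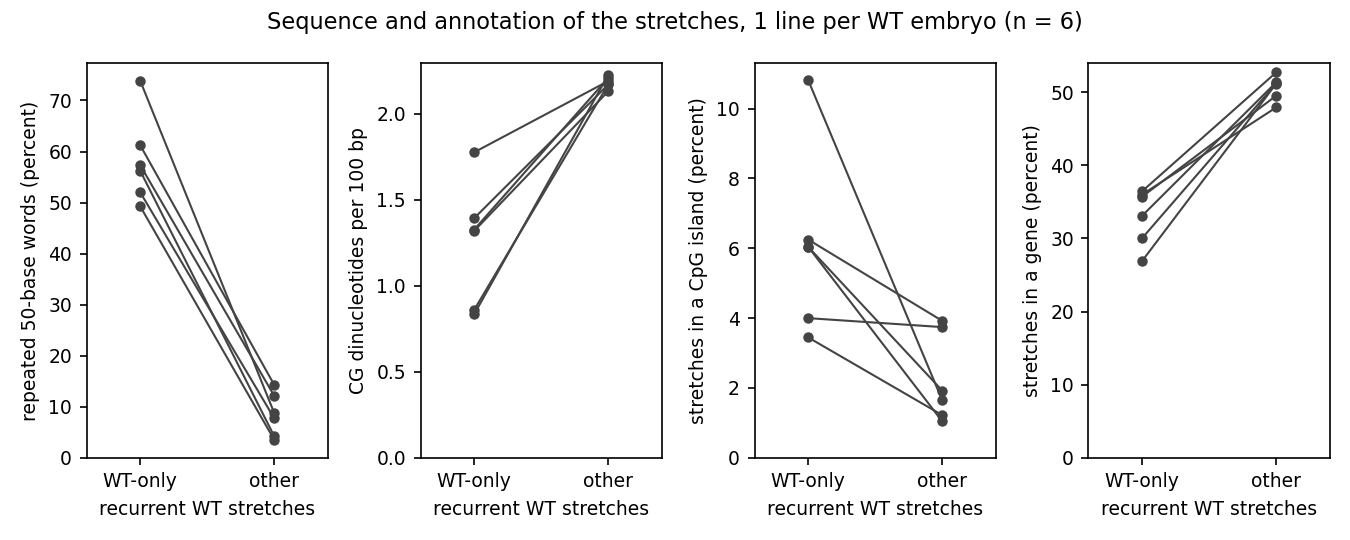
Share of repeated 50-base words (percent), CG dinucleotides per 100 bp, and percent of stretches in a CpG island or in a gene, over WT-only regions (left) and other recurrent WT stretches (right), with 1 line per WT embryo (n = 6). The lines for repeated words fall from 49.2 to 73.8% down to 3.51 to 14.3%, and those for CpG density and genes rise in all 6 embryos.

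Litters left out of the rule were then read, so that each measured library had no part in the choice of its regions. The regions were chosen anew from 5 litters, and the share touched by a peak was read in the embryos of the sixth, as a mean over tissues for pair a and pair b. For pair b this mean covers heart and carcass, and the liver, whose *Tdg* null library is the set-aside one, was left out of the reading in both genotypes. The WT liver of pair b touched 5.61%. WT and *Tdg* null peaks touched 2.82% and 2.38% in litter A, 3.97% and 1.01% in O, 11.8% and 2.76% in Q, 3.26% and 8.82% in Z, 34.3% and 11.8% in pair a and 27.9% and 2.17% in pair b. WT was higher in 5 of 6 litters and lower in Z. The mean difference was 9.18 percentage points ± 12.5 (SD, n = 6 litters), which did not pass (exact two-sided sign-flip permutation p = 0.156). It was 14.5 over 5 litters without WT embryo i6 in the rule, and 5.23 with pair b left out of the whole analysis.

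**Figure D5:**
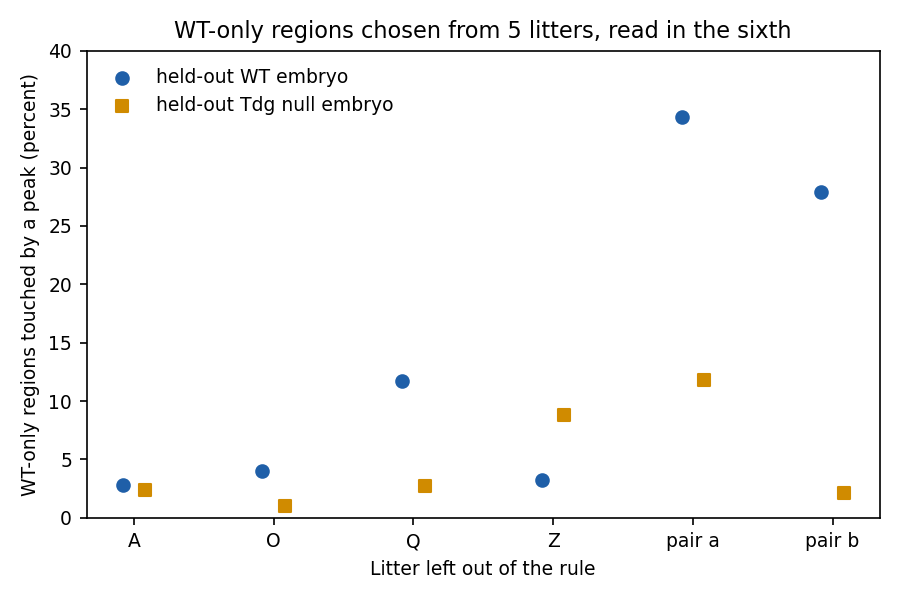
Percent of WT-only regions touched by a peak of the litter that was left out of the rule (x axis), for the WT embryo (circles) and the *Tdg* null embryo (squares). WT is higher in 5 of 6 litters, from 2.82% against 2.38% in A to 27.9% against 2.17% in pair b, and lower in Z (3.26% against 8.82%).

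Absence from *Tdg* null peaks was likewise uncertain in new litters. Held-out *Tdg* null peaks covered 1.85% of region bases in A, where they covered 3.82% of autosomal bases. In O the 2 shares were 0.702% and 2.84%, in Q 2.45% and 3.74%, in Z 7.75% and 3.89%, in pair a 10.2% and 5.85% and in pair b 1.87% and 5.94%. *Tdg* null coverage was thus below the genome in 4 litters and above it in 2. For pair b it was read in heart and carcass, while the WT coverage given below also covers the liver. The mean log2 ratio was -0.59 ± 1.25 (SD, n = 6 litters, exact sign-flip permutation p = 0.312). With pair a left out of the whole analysis the mean was 0.78, and with WT embryo i6 left out of the rule 0.18. Held-out WT peaks, a measure added after these values were seen, covered a larger share of region bases than of autosomal bases, with a mean log2 ratio of 5.78 ± 0.71 (SD, n = 6 litters, above 0 in 6 of 6, exact sign-flip permutation p = 0.0312). Coverage by left-out WT peaks thus exceeded that of the genome, although they touched under 4% of the regions in litters A, O and Z. The regions were chosen for WT peaks in other litters, and the other recurrent stretches were not read in this way. The ratio therefore shows nothing particular to WT-only regions. The difference from *Tdg* null did not pass the test.

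The regions found in most WT libraries were scattered. After chr3:40448901-40449600 in *Intu*, which codes for a protein needed to build cilia, 3 regions lay under 9 libraries. They were chr6:3007401-3008200, chr11:46317601-46318100 and chr16:50994301-50995000, all outside annotated genes. The last had 26 CG dinucleotides in 700 bp and 84.4% repeated words. None lay under 8, and 16 lay under 7. Among these 16, chr6:23430001-23431200 is in an intron of *Cadps2*, a factor of dense-core vesicle release, holds 67 CG dinucleotides in 1200 bp and aligned to LINE-1 at 97.6% identity. The region at chr9:65160101-65161200 is in an intron of *Clpx*, a subunit of a mitochondrial protease, and had 22.9% repeated words.

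The window of 5 Mb with the most regions was on chromosome 4. Between 145 and 150 Mb there were 33, against a median of 6 over all 505 windows, and they were 23.7% of the recurrent stretches there, against 9.14% of all. It led by count and not by share, since 34 of the 57 windows with 10 or more regions had a higher share, up to 78.9% (15 of its stretches) between 65 and 70 Mb on chromosome 7. The chromosome 4 window contains chr4:145221301-145222700, under 7 libraries, chr4:146631601-146632300, also under 7, and 2 of the 5 longest regions, chr4:145126501-145128700 and chr4:145163801-145166000, each 2200 bp long and in annotated predicted genes (*Gm13242* for both). The longest region of all, chr11:3049301-3100200, spans 50900 bp and overlaps *Sfi1* and *Drg1*. It lay under hindbrain O, hindbrain Q and heart pair a, and had 5.50% repeated words. The regions farthest from a *Tdg* null peak were all LINE-1. On chromosome 12 chr12:115830301-115830500 was 1166800 bp away, chr12:116343601-116344100 was 939000 bp away and chr12:115474301-115474700 was 810800 bp away. On chromosome 17 chr17:18740301-18740600 was 692800 bp away and chr17:18669301-18669700 was 621800 bp away.

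Regions of 1 tissue alone, under all of its libraries (for hindbrain at least 3 of 4), numbered 1032 (35.2%), against 40.6% of the other recurrent stretches. Carcass supplied 93.3% of them, and 94.3% of such stretches among the others. Hindbrain had 30, of which 28 were tandem arrays and 0 were without repeated words. Heart had 13, with 2 arrays and 1 without repeated words. Liver had 26, with 1 array and 14 without repeated words. Carcass had 963, with 6 arrays and 646 without repeated words. Among the other recurrent stretches of these 4 kinds, 12.7% were arrays in hindbrain and 0.0627 to 1.64% elsewhere, and 74.9 to 95.3% were without repeated words. This is a description with no test. For hindbrain the longest was chr7:119781301-119782700, in an intron of *2310014F06Rik*, an array with a unit of 30 bp under hindbrain A, O and Q. It was followed by the *Gpr180* array shown above. For heart the longest were chr13:34194601-34195900 and chr4:146717001-146718100, and for carcass chr17:29240801-29242400, outside genes, and the *Unc13b* array. *Unc13b* codes for a protein that readies synaptic vesicles for release. For liver they were the *Rab4a* region, in a gene of endosome recycling, and chr11:5495601-5496300, in *Ankrd36*, and neither held a repeated word.

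Regions without any repeated word numbered 805. Of these 749 (93.0%) lay under a carcass library, against 87.5% of the other recurrent stretches without repeated words. Both carcass libraries and nothing else lay over 646 (80.2%), against 39.8%, while 60 lay under hindbrain, 52 under heart and 82 under liver. They had 44.4% GC, 1.80 CG dinucleotides per 100 bp and lay in genes in 45.2% of cases. Other recurrent stretches without repeated words had 47.5% GC, 2.16 CG dinucleotides per 100 bp and lay in genes in 51.7%. The 805 were 2.92% of the 27524 recurrent stretches without repeated words, below the 9.14% of all stretches.

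The region of this kind under most libraries was chr10:80641301-80641800, 500 bp in *Eef2*, which codes for the translation elongation factor that moves the ribosome, and beside the small nucleolar RNA gene *Snord37*. It overlaps an exon, holds 4 CG dinucleotides per 100 bp and lay under all 4 WT hindbrain and both WT heart libraries, and no liver or carcass library. The nearest *Tdg* null peak was 100 bp away. The next, chr12:77609801-77610400, lay under hindbrain O, Q and Z and both carcass libraries, outside genes and 600 bp from a *Tdg* null peak. In *Scube1*, which codes for a secreted cell surface protein, chr15:83525401-83526200 lay under heart pair b, liver pair a and both carcass libraries, 200 bp from a *Tdg* null peak. These 3 were chosen after their values were seen.

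Gene lists for the tissues held very few regions. A region lay in or within 1000 bp of 812 of 31492 autosomal gene symbols (2.58%). None of the 25 heart genes, 16 hepatocyte genes, 39 Hox genes, 55 ribosomal protein genes or 19 genes of TDG, the TET enzymes, the DNA methyltransferases and their partners had one. Of 28 imprinted genes *Ube3a*, a ubiquitin ligase gene, had one, a LINE-1 region of 700 bp under heart and liver of pair a and both carcass libraries, with 94.4% repeated words. Of 24 hindbrain genes *Elavl3*, a neuronal RNA-binding protein gene, had one, of 500 bp under 2 hindbrain libraries, with 63.8% GC and 40.2% repeated words. Of 12 erythroid genes *Ank1*, a red cell membrane skeleton gene, had one, of 400 bp under 2 hindbrain and 1 heart library, with no repeated word. With shares of 0 to 8.33% beside 2.58% for all genes, and 1 gene at most per list, the counts say nothing particular of any list.

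Short sequence motifs were counted in the same way, on both strands and by exact letters. The Sp1 box GGGCGG was in 5.15% of WT-only regions, 12.4% of the other recurrent stretches and 3.73% of autosomal windows of 400 bp. The Nrf1 core TGCGCA was in 2.52%, 5.38% and 1.53%. The CCAAT box, with letters CCAAT, was in 49.8%, 47.7% and 49.1%, and TATAAA in 34.9%, 28.8% and 33.9%. At least 3 tandem copies of TTAGGG, the telomere unit, were in 0.682% of WT-only regions, 0.103% of the others and 0.00627% of windows, and at least 6 tandem copies of CA in 1.43%, 2.14% and 5.87%. The other stretches are longer by 100 bp at the median, which favours a match there, and a match is a description and not a site.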

How the data were processed

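5fC peaks of 20 libraries from 12 embryos were read as deposited. Per the study's methods, the authors removed adapters with trim_galore, placed the reads on NCBIM37 (mm9) using Bowtie2 defaults, and ran the MACS implementation in SeqMonk separately on every library (p cutoff 1e-05, assumed fragments of 200 bp). Each deposited peak list used here holds genomic positions (other than counts, heights or scores) that mark peak starts and ends on a grid of 100 bp, so depth is unknown from these lists and no peak could be weighted. How reads with several equal placements were filtered is not given in the sources used here.

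The members and gene lists were chosen with earlier results of these data known. Sequence came from NCBIM37 and genes from its GENCODE annotation. CpG islands were called on unmasked sequence (at least 200 bp, GC 50%, observed over expected CpG 0.6), and promoters are the 1000 bp upstream of a start. Families join regions that share at least 20% of the smaller one's 24-base words. LINE-1 was placed with blastn 2.17.0 (E-value 1e-10). Tests were exact sign flips over the 6 WT embryos (Benjamini-Hochberg over 7 features) or the 6 litters, which the study pairs by genotype. Embryos are separate animals. The named regions are the 10 under most WT libraries, the 5 longest, the 5 farthest from a *Tdg* null peak and the 2 longest specific to each tissue, and genes holding them or starting within 1000 bp. Alternatives changed the rule (bin by bin, 3 libraries, 2 embryos, length, distance, overlap, libraries left out), island and promoter definitions, word length, test units and weights. On simulated peaks the rule and tests were checked. Python 3.11.15, numpy 2.4.6, pandas 2.3.3, scipy 1.17.1, numba 0.67.0 and matplotlib 3.10.9 were used.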

Additional observations from a re-analysis of the deposited data

Results flagged for a closer look

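Of 17 series of values checked for a lone value, 2 held one, and chance gives about 1 in 20. Over the 6 WT embryos, the difference in repeated 50-base words between WT-only regions and other recurrent stretches was 65.1 percentage points in embryo i6, apart from the next, 52.0 (Q3). Among the 4 *Tdg* null hindbrain libraries, that of litter O covered 2.84% of autosomal bases, apart from the next lowest, 3.74%. Results without embryo i6 are given beside some of the results it touches and for the others in the section that follows. No explanation was weighed for either lone value.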

How the results depend on the processing

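The number of WT-only regions depended on which libraries entered the rule. It was 1239 without the WT carcass libraries, 505 without WT embryo i6, 1121 with at least 3 WT libraries, 536 with WT peaks of 600 bp or more and 805 among stretches without repeated words. Leaving out 1 litter gave 666 (pair a) to 3187, with 1730 without pair b. Their share of recurrent stretches, 9.14%, became 11.2%, 3.91%, 9.48%, 3.62% and 2.92% under the same 5 settings, 10.5% bin by bin, 9.55% where partial overlap by *Tdg* null peaks was allowed, 8.47% with no *Tdg* null peak within 500 bp, 8.32% with 2 WT embryos and 7.96% at 400 bp or more. Over litters left out it was 5.15 to 10.7%.

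With 5 embryos no feature test can pass, so the calls were lost by construction without embryo i6 or 1 litter. Without i6 repeated words differed by 45.3, CpG density by -1.06 per 100 bp, island overlap by 3.99, exon overlap by -7.48 and gene overlap by -15.8 (percentage points unless stated). With WT peaks of 600 bp or more these differences were 50.2, -1.09, 2.32, -9.12 and -8.85, and none passed after adjustment. For repeated words, CpG density and exons the unadjusted p stayed at 0.0312, the smallest possible, and their calls were lost as the island and gene differences rose to p = 0.562 and 0.0938 (exact sign-flip permutation), for which the cause was not tested. Leaving out 1 litter gave 40.2 to 51.8, -1.12 to -0.85, 2.63 to 4.35, -8.59 to -6.10 and -19.3 to -14.4. Among stretches without repeated words, where 4 embryos could be read, CpG density differed by -0.38, islands by 0.369, exons by 0.154 (reversed) and genes by -4.58.

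Calls that had not passed also changed sign. The GC difference was 0.445 without i6, 0.944 with peaks of 600 bp or more and -1.55 to 0.467 over litters left out. The promoter difference was 2.61 among stretches without repeated words, -1.76 to 0.371 over litters left out, and passed at -1.80 with the 10 libraries as units (adjusted p = 0.00911, exact permutation), which counts embryos more than once. Held-out *Tdg* null coverage was 0.18 without i6 and -0.36 to 0.78 over litters left out, and the held-out difference in regions touched 5.23 to 13.1. The other settings kept the direction and the side of the threshold, but the island difference was 2.38 with islands of at least 500 bp and that in repeated words 33 with words of 100 bases. Among results that had not passed, the GC difference moved to -1.42 (at least 3 WT libraries), -1.72 (10 libraries as units) and -2.51 (without repeated words), the promoter difference to -0.40 (bin by bin) and -0.85 (partial overlap allowed), held-out *Tdg* null coverage to -0.11 (partial overlap) and -0.16 (600 bp), and the difference in regions touched to 14.5 (without i6) and 15.8 (at least 3 WT libraries). Depth is unknown from peak positions, which limits every count of regions without a *Tdg* null peak.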
